A study of Mus musculus with 8 samples.

Results

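The CCN family comprises secreted matricellular proteins, which sit in the extracellular matrix and act on cells rather than serving as scaffold. The members examined were Ccn1, Ccn2, Ccn3, Ccn4 and Ccn5, the rows of the deposited gene table that carry those symbols. All 5 were found among the 32098 gene rows. They were measured by RNA sequencing of whole tumours grown from 4T1, a mouse mammary carcinoma cell line, with a genotype labelled WT. Radiation was combined with an immune checkpoint inhibitor in 4 tumours (RI, replicates 1, 2, 4 and 5). Another 4 received the inhibitor alone (ICI, replicates 1, 2, 3 and 4). The inhibitor was thus common to both groups, and no untreated or radiation-only tumour was analysed here. Which inhibitor and what dose were given, and whether the RI tumours themselves were irradiated, is not stated in the labels. Nor is it stated that every tumour came from its own mouse, so the p-values reflect sample-to-sample spread that may be technical. The series lists 4 tumours a group although its design text mentions 3, and all 8 were used.

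CCN proteins are built from a chain of modules: a domain like that of the insulin-like growth factor binding proteins, a von Willebrand factor type C repeat, a thrombospondin type 1 repeat and a C-terminal cystine knot, which Ccn5 lacks. They bind integrins, syndecans and LRP receptors, and they modulate TGF-beta, WNT and growth factor signals. Ccn1 and Ccn2 are textbook targets of YAP and TAZ, the transcriptional co-activators restrained by the Hippo kinases, and Ccn2 also responds to TGF-beta. Ccn4 was described as a WNT-induced gene, and in tumours the family is best known from fibroblasts, endothelium and wound-like stroma.

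Ccn1 lies on chromosome 3 (145646976 to 145649981, minus strand, GRCm38, ENSMUSG00000028195), Ccn2 on chromosome 10 (24595442 to 24598683, plus strand, ENSMUSG00000019997) and Ccn5 on chromosome 2 (163820861 to 163833146, plus strand, ENSMUSG00000027656). Ccn3 (54745702 to 54754039, ENSMUSG00000037362) and Ccn4 (66891320 to 66923201, ENSMUSG00000005124) both lie on the plus strand of chromosome 15. All are protein coding, with 2019, 2861, 1924, 2869 and 5565 bases of merged exon for Ccn1, Ccn2, Ccn5, Ccn3 and Ccn4. Among the 5 members only Ccn2 overlaps another annotated gene, Gm15270, which is on the opposite strand and had at most 0.0887 FPKM in any tumour.

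A promoter sequence was at hand for 1 of the 5 members, Ccn1, the most abundant one. It is shown because the genes set beside the family below include the TEAD factors through which YAP and TAZ act. The 250 bases before the RefSeq start of Ccn1 (chr3:145649986-145650235, minus strand, GRCm38.p6, read 5′ to 3′ on the gene's strand) carry 3 motifs in capitals.
Ccn1 promoter: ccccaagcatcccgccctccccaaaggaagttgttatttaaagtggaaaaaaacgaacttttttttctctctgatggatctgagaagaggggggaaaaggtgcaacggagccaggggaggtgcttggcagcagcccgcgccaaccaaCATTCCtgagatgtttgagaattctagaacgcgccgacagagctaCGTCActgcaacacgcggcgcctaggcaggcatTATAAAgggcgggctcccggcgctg
The first is the TEAD core GGAATG, read here on the opposite strand, at −103 to −98 from the start. The next is the core TGACG of the cAMP response element, also on the opposite strand, at −58 to −54, and the last is the TATA box TATAAA at −25 to −20. Searched on both strands, GGAATG stood in 12.6% of 32817 RefSeq windows of the same length, TGACG in 17.7% and TATAAA in 12.4%. The motifs do not overlap, and a match of letters is a description, not a bound site.

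The libraries held between 27013060 and 42622664 fragments, as recovered from the deposited values. A single library stood out in either group. The 6 neutrophil markers summed to 21281 FPKM in ICI 1, while the remaining ICI tumours had 208 to 641 FPKM. In RI 4, 3 gene models, 1 of them related to 18S ribosomal RNA, took 60.7% of the summed FPKM, against at most 1.54% in the other RI tumours. Of the 36378144 fragments in RI 4, 30018302 lay in genes of known exon length, against 42386013 of 42622664 in RI 5. FPKM is scaled to the whole, so the FPKM of these genes read lower in RI 4 than the other libraries' scaling would give. Results below are given with all 8 tumours, and also without ICI 1 and RI 4 where that changes a call of a gene named by rule from a list. Mitochondrial genes took 2.91%, 3.24%, 3.10% and 2.72% of the fragments in RI 1, 2, 4 and 5, against 6.78%, 5.33%, 4.41% and 8.21% in ICI 1, 2, 3 and 4. The groups did not overlap in this share, and its part in the results below was not tested. Of the epithelial markers, Krt8 and Krt18 were high in every tumour, whereas Epcam lay between 0 and 1.06 FPKM in RI and between 0.0372 and 5.02 FPKM in ICI. In bulk tissue fewer cells of a type and less RNA per cell cannot be told apart. A gene was tested if 4 or more tumours reached 1 FPKM, which held for 13439 genes, Ccn1, Ccn2, Ccn4 and Ccn5 among them.

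Ccn1 dominated the family in every tumour. FPKM is scaled to gene length, so members can be set side by side. Mean FPKM ran in the order Ccn1, Ccn2, Ccn5, Ccn4 and Ccn3 in both groups. Ccn1 lay above Ccn2 in all 8 tumours, by 1.91-fold to 8.27-fold in RI and by 2.11-fold to 8.48-fold in ICI. The ranges of Ccn2 and Ccn5 overlapped in RI but not in ICI. Those of Ccn5 and Ccn4, and of Ccn4 and Ccn3, overlapped in ICI but not in RI. Summed over the 5 genes, the family reached 38.6 to 83.5 FPKM in RI and 50.2 to 114 FPKM in ICI. The sixth family gene, Ccn6, is in the table but was not among the members chosen, and it is left out of the order, this sum and the shares. It had 1.17, 0.0876, 0.0969 and 0.959 FPKM in RI 1, 2, 4 and 5, against 0.620, 0.419, 0.230 and 0.745 FPKM in ICI 1, 2, 3 and 4. Its mean over the 8 tumours was 0.542 FPKM, beside 0.545 FPKM for Ccn3, and it overlaps Tube1 on the opposite strand.

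**Figure D1:**
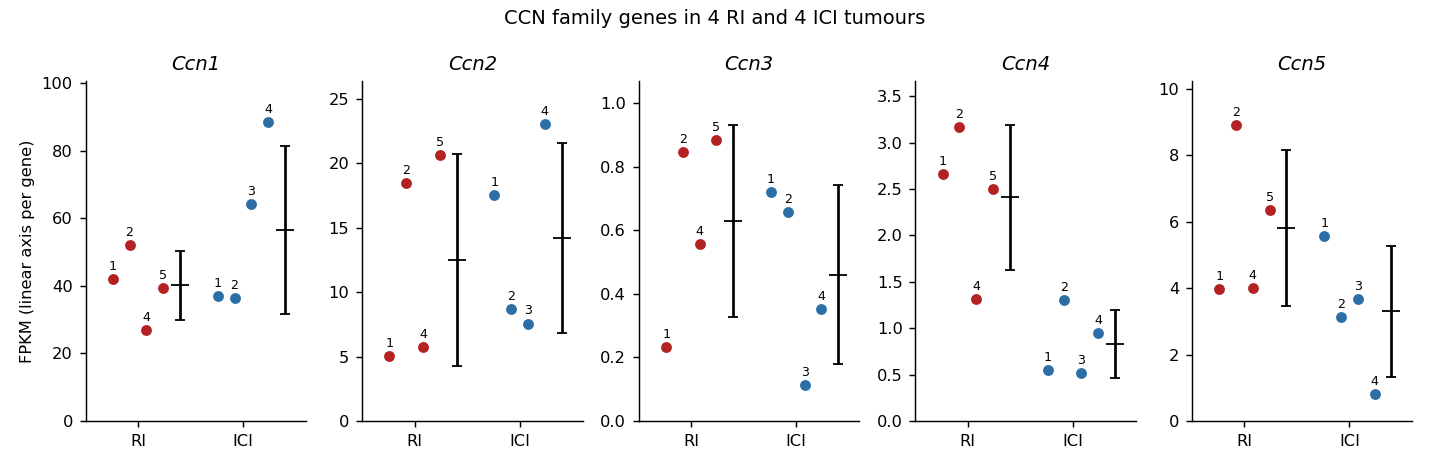
FPKM of each CCN gene in each tumour on a linear axis starting at 0, RI left of ICI, with replicate numbers beside the points and the mean ± SD of 4 tumours as a bar at the right of each group. The 4 RI values of Ccn4 (1.31 to 3.17) all lie above its 4 ICI values (0.519 to 1.30), while the groups overlap for the other 4 genes.

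Ccn4 took a larger share of the family signal in each RI tumour than in any ICI tumour. Ccn4 held 4.94%, 3.79%, 3.40% and 3.57% of the summed CCN FPKM in RI 1, 2, 4 and 5. It held 0.891%, 2.59%, 0.683% and 0.837% in ICI 1, 2, 3 and 4. The gap was narrowest between RI 4 and ICI 2. Ccn5 held 7.36% to 10.7% in RI and 0.710% to 9.09% in ICI, with ICI 4 by far the lowest. The share of Ccn1 was 56.4% to 77.9% in RI and 60.3% to 84.4% in ICI, and that of Ccn2 was 9.41% to 29.6% in RI and 9.95% to 28.6% in ICI. Set against Ccn1 in the same tumour, which cancels the size of the library, Ccn4 stood at 4.86% to 6.34% of the Ccn1 level in RI and at 0.809% to 3.57% in ICI. No test was made of shares and ratios between members.

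**Figure D2:**
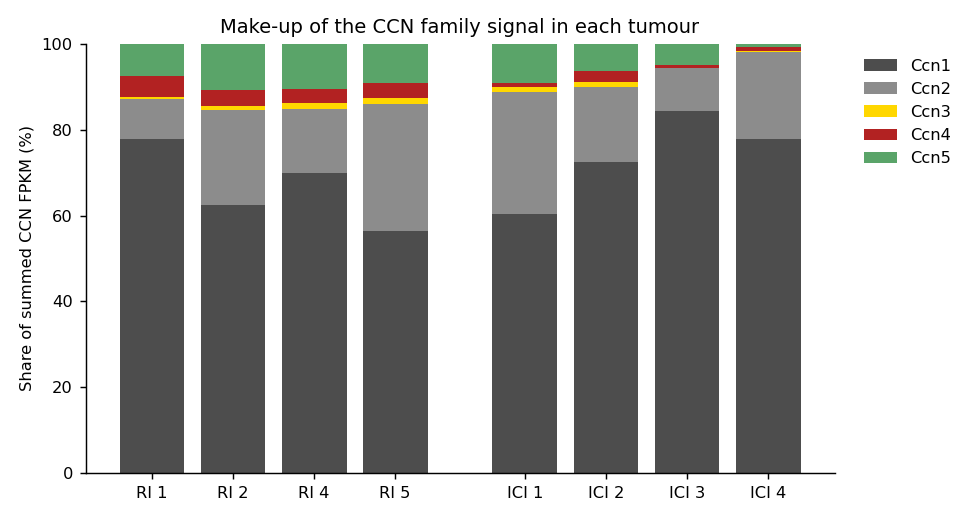
Share of the summed FPKM of the 5 CCN genes held by each one, in percent, with 1 stacked bar per tumour and the RI tumours on the left. Ccn1 fills 56.4% to 77.9% of the bars in RI and 60.3% to 84.4% in ICI, and the band of Ccn4 is wider in each RI tumour (3.40% to 4.94%) than in any ICI tumour (0.683% to 2.59%).

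Ccn4 encodes a secreted modulator of integrin and WNT-related signalling described in tumour stroma. Of the 4 members tested, it alone passed at an adjusted p under 0.05, being higher in RI. It had 2.66, 3.17, 1.31 and 2.50 FPKM in RI 1, 2, 4 and 5, against 0.545, 1.30, 0.519 and 0.950 FPKM in ICI 1, 2, 3 and 4. All RI values lay above all ICI values, but RI 4 exceeded ICI 2 only narrowly. Ccn4 reached 1 FPKM in 5 tumours, every RI tumour and ICI 2. It thus met the filter for testing through the group where it is high, which limits what its call can show. These values rested on 400, 567, 266 and 592 fragments in RI and on 100, 292, 106 and 225 fragments in ICI. Ccn4 averaged 2.41 ± 0.784 FPKM in RI and 0.83 ± 0.371 FPKM in ICI (SD, n = 4 each), a ratio of means of 2.91. On the log2(FPKM + 1) scale, where low genes show less than their true fold, the difference was 0.89 with a standard error of 0.23 and a 95% interval of 0.38 to 1.40 (limma, Benjamini-Hochberg adjusted p = 0.0305).

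At an adjusted p under 0.05, 1 of the 4 members tested rose and 0 fell, while 11.1% of all genes tested rose and 6.6% fell, 17.7% together. With 4 genes, this count cannot be set apart from that background. All 4 RI values lay above all 4 ICI values for Ccn4 alone of the 4 members tested, a pattern found in 16.7% of the genes in the fit. The reverse held for 0 of the 4 members and 11.2% of all genes, which makes 27.9% without overlap in either direction. The call of Ccn4 was lost when ICI 3 (adjusted p = 0.0586), ICI 4 (0.0739), RI 1 (0.0724), RI 2 (0.0826) or RI 5 (0.0681) was left out. It was kept without both ICI 1 and RI 4, with a difference of 0.99 (adjusted p = 0.0157), and it was lost with TPM (1.26, adjusted p = 0.0914) and when the filter on low values was dropped (0.89, adjusted p = 0.0918).

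The differences of all genes followed gene length, and Ccn4 has the longest exon sequence of the 5. Among tested genes of 4597 to 5592 bases, the tenth of genes that holds Ccn4, 15.1% rose and the median difference was 0.098. Ccn1 and Ccn5 fall in a group of 1599 to 2371 bases, whose median was −0.17, and Ccn2 in one of 2372 to 3050 bases, whose median was −0.053. After the trends on length and GC content were removed from each library, the difference was 0.69 for Ccn4 (adjusted p = 0.0389), 0.97 for Ccn5 (adjusted p = 0.105), −0.29 for Ccn1 and −0.29 for Ccn2.

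**Figure D3:**
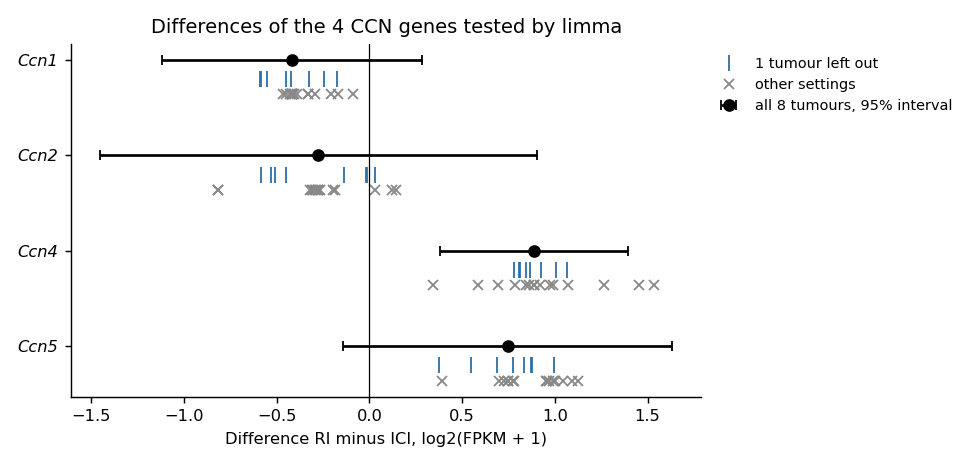
Difference RI minus ICI in log2(FPKM + 1) for the 4 CCN genes tested, with the limma estimate from all 8 tumours and its 95% interval as black circles and bars, estimates with 1 tumour left out as blue ticks and estimates under other settings as grey crosses. The interval of Ccn4 (0.38 to 1.40) lies above 0, those of Ccn1, Ccn2 and Ccn5 span 0, and the estimates of Ccn2 fall on both sides of it.

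Ccn5, the member without the C-terminal module and known from fibroblasts and the adipocyte lineage, had 3.96, 8.90, 4.01 and 6.37 FPKM in RI 1, 2, 4 and 5. In ICI 1, 2, 3 and 4 it had 5.57, 3.13, 3.68 and 0.806 FPKM. RI 2 was the highest tumour and ICI 4 the lowest, and ICI 1 lay above RI 1 and RI 4. It averaged 5.81 ± 2.35 FPKM in RI and 3.30 ± 1.96 FPKM in ICI (SD, n = 4 each). The log2 difference of 0.75 had a 95% interval of −0.14 to 1.63 and did not pass (limma adjusted p = 0.203). Without ICI 4, which held 66 fragments of Ccn5, the difference was 0.38, and without both ICI 1 and RI 4 it was 1.12 (adjusted p = 0.0927). The 6 adipocyte markers summed to 351 FPKM in RI 2, the tumour highest in Ccn5, and to 6.18 to 18.6 FPKM in the other RI tumours and 3.04 to 11.4 FPKM in ICI. Their part in the level of Ccn5 was not tested.

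Ccn1, an angiogenic and immediate early gene, was the most abundant member and higher than 92.6% of the genes tested by its mean over the 8 tumours. It had 42.0, 52.1, 27.0 and 39.4 FPKM in RI 1, 2, 4 and 5, against 36.9, 36.4, 64.1 and 88.4 FPKM in ICI 1, 2, 3 and 4. The 2 highest tumours, ICI 3 and ICI 4, were both ICI, and the other ICI tumours lay within the RI range. The means were 40.1 ± 10.3 FPKM in RI and 56.5 ± 24.9 FPKM in ICI (SD, n = 4 each). The log2 difference of −0.42 had a 95% interval of −1.12 to 0.28 and did not pass (limma adjusted p = 0.360). Without ICI 4 it was −0.17, and without ICI 2 it was −0.59.

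Ccn2, connective tissue growth factor, varied more within each group than between the groups. It had 5.07, 18.5, 5.71 and 20.7 FPKM in RI 1, 2, 4 and 5, and 17.5, 8.71, 7.56 and 23.0 FPKM in ICI 1, 2, 3 and 4. A pair of high and a pair of low tumours stood in either group, RI 2 and RI 5 against RI 1 and RI 4, and ICI 1 and ICI 4 against ICI 2 and ICI 3. The highest value was 4.08-fold the lowest in RI and 3.05-fold in ICI. These values rested on 392 to 2521 fragments in RI and 794 to 2806 in ICI, so counting error is small beside them. The log2 difference of −0.28 had a 95% interval of −1.45 to 0.90 (limma adjusted p = 0.727), and its sign turned when RI 1 was left out (0.029) and when ICI 1 and RI 4 were (0.12).

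Ccn3, a member with growth-restraining effects in several cell types, was detected in every tumour but low, and it reached 1 FPKM in 0 of 8 tumours. It had 0.232, 0.845, 0.556 and 0.883 FPKM in RI 1, 2, 4 and 5, against 0.719, 0.657, 0.114 and 0.352 FPKM in ICI 1, 2, 3 and 4. That is 18, 78, 58 and 108 fragments in RI and 68, 76, 12 and 43 in ICI, and the groups overlapped. As it was below the filter, it was compared alone, with a difference of 0.16 in mean log2(FPKM + 1) and a two-sided p of 0.429 by exact permutation of the tumours among 70 regroupings. The smallest p such a test can give with 4 against 4 tumours is 0.0286.

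Several members peaked in the same RI tumours. RI 2 and RI 5 held the 2 highest RI values of Ccn2, Ccn3 and Ccn5, and RI 2 the highest of Ccn1 and Ccn4. The fibroblast markers had the same 2 tumours on top. Their 9 genes summed to 150, 530, 118 and 248 FPKM in RI 1, 2, 4 and 5, against 66.2, 61.3, 80.6 and 66.2 FPKM in ICI 1, 2, 3 and 4, without overlap. Col1a1, Col1a2, Col3a1 and Lum rose, 4 of the 8 fibroblast markers tested, while 11.1% of all genes tested rose. None of the 8 fell, and their median log2 difference was 1.28. The count was 0 if ICI 4 or RI 5 was left out, 1 for ICI 2, 2 for ICI 1, ICI 3, RI 1 or RI 2, and 6 without both ICI 1 and RI 4. Their part in the differences of the CCN genes was not tested.

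Per 100 FPKM of these summed fibroblast markers, a sum led by Col1a1 and Col3a1 and a ratio chosen after the values were seen, Ccn4 stood at 1.78, 0.598, 1.12 and 1.01 FPKM in RI 1, 2, 4 and 5. It stood at 0.824, 2.12, 0.644 and 1.44 FPKM in ICI 1, 2, 3 and 4, so that on this measure the groups overlapped. Ccn1 stood at 9.84 to 28.1 FPKM in RI and 55.8 to 134 FPKM in ICI, and Ccn2 at 3.39 to 8.35 FPKM in RI and 9.38 to 34.8 FPKM in ICI, with every RI value of both below every ICI value. The marker sum itself did not overlap between the groups, and 73.6% of all genes tested separated in this way on the same ratio, so nothing is read from it for Ccn1 and Ccn2. Ccn5 stood at 1.68 to 3.41 FPKM in RI and 1.22 to 8.42 FPKM in ICI.

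**Figure D4:**
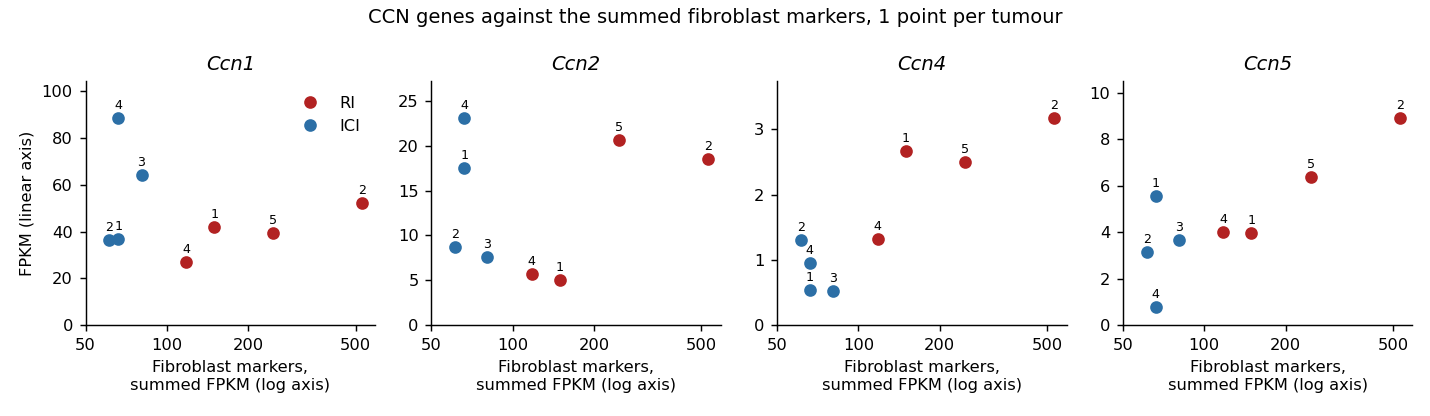
FPKM of the 4 tested CCN genes on a linear axis against the summed FPKM of 9 fibroblast markers on a log axis, with 1 point per tumour and replicate numbers beside the points, RI in red and ICI in blue. The RI tumours (118 to 530 FPKM of markers) lie to the right of the ICI tumours (61.3 to 80.6), with Ccn4 and Ccn5 highest in RI 2 and Ccn1 highest in ICI 4.

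Of the summed markers of other cell types, those of neutrophils did not overlap between the groups, and the other sums did. The counts of markers that rose or fell stand beside 11.1% and 6.6% of all genes tested. The 6 skeletal muscle markers summed to 102 to 541 FPKM in RI and 1.88 to 229 FPKM in ICI, and 2 of 6 rose, a count that was 5 without ICI 3, 1 without ICI 2 and 0 without ICI 1, ICI 4, RI 1, RI 2 or RI 4. The 6 neutrophil markers summed to 19.8 to 79.4 FPKM in RI and 208 to 21281 FPKM in ICI, and 2 of 6 fell, a count that was 5 without ICI 1, 3 without ICI 3 and 0 when any of the remaining 6 tumours was left out. The 6 macrophage markers summed to 279 to 703 FPKM in RI and 286 to 360 FPKM in ICI, with 2 of 6 rising, or 1 when ICI 4 or RI 2 was left out. The 8 endothelial markers summed to 54.0 to 96.7 FPKM in RI and 51.0 to 359 FPKM in ICI, with 0 of the 5 tested passing, while 1 had an unadjusted limma p under 0.05 and limma voom called 0. Without ICI 1, and likewise with array weights, 1 endothelial gene rose, and the median of the 5 was 0.040 without ICI 1 against −0.52 with all tumours. The 7 pericyte and smooth muscle markers summed to 31.1 to 78.0 FPKM in RI and 22.4 to 44.9 FPKM in ICI, with 0 of the 3 tested passing in limma or limma voom and 0 at an unadjusted p under 0.05, while 1 rose with TPM. The 9 epithelial markers summed to 768 to 1400 FPKM in RI and 978 to 2007 FPKM in ICI, with Krt5 at 0 in all ICI tumours, and 1 of the 5 tested, Cldn3, fell. With 1 tumour left out, an epithelial gene fell only in the fit without ICI 3, and 0 fell after the length and GC correction or without both ICI 1 and RI 4. The 6 T cell markers summed to 4.31 to 11.4 FPKM in RI and 7.57 to 20.6 FPKM in ICI, and 1 of the 3 tested, Trac, fell, but 0 did when RI 1, RI 2 or RI 5 was left out or after the length and GC correction. Of the 7 cartilage and bone markers, looked at because several CCN genes act in skeletal tissue, Acan, Col2a1 and Sp7 stayed under 1 FPKM throughout. Their part in the levels of the CCN genes was not tested.

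Upstream of Ccn1 and Ccn2, several Hippo pathway genes rose in RI. Of 17 genes of the Hippo core with YAP, TAZ and the TEAD factors, 7 rose, 0 fell and 10 did not pass. Over all genes tested 11.1% rose and 6.6% fell. The list had a median log2 difference of 0.42, against 0.011 over all genes tested. Yap1, which encodes YAP, had 20.1, 18.8, 15.7 and 17.9 FPKM in RI 1, 2, 4 and 5, against 7.63, 14.5, 13.2 and 10.4 FPKM in ICI 1, 2, 3 and 4. The groups did not overlap, and the log2 difference was 0.65 (limma adjusted p = 0.0461), a call that was lost when ICI 4, RI 1, RI 2, RI 4 or RI 5 was left out. Tead1, a DNA-binding partner of YAP, had 17.7, 16.7, 18.2 and 19.3 FPKM in RI 1, 2, 4 and 5, against 9.09, 10.5, 9.45 and 10.9 FPKM in ICI 1, 2, 3 and 4. Its log2 difference was 0.79 (adjusted p = 0.0125), and it passed in 8 of 8 fits with 1 tumour left out. The other TEAD genes did not pass: Tead2 (0.32, adjusted p = 0.215), Tead3 (−0.063, adjusted p = 0.863) and Tead4 (0.0091, adjusted p = 0.977). Inhibitors of YAP were among the genes that rose too. Nf2, the merlin tumour suppressor, differed by 0.51 (adjusted p = 0.0202), the kinase cofactor Mob1a by 0.68 (adjusted p = 0.0206) and the YAP-binding scaffold Amot by 0.75 (adjusted p = 0.0296). Nf2 and Mob1a each passed in 5 of these 8 fits, the exceptions being those without ICI 4, RI 1 or RI 2, and Amot in 2, those without ICI 1 or ICI 3. Amot did not pass without both ICI 1 and RI 4 (adjusted p = 0.0562). Wwtr1, which encodes TAZ, had 30.7 to 40.4 FPKM in RI and 22.0 to 40.5 FPKM in ICI (log2 difference 0.11, adjusted p = 0.726), and its sign turned to −0.045 after the length and GC correction.

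Several other targets of YAP and TAZ rose in RI, while others, like Ccn1 and Ccn2, did not pass. Of 21 further target genes 17 were tested, and 9 rose, 0 fell and 8 did not pass, with a median log2 difference of 0.60. Of all genes tested, 11.1% rose and 6.6% fell. Ptpn14, a phosphatase that binds YAP, averaged 6.78 ± 0.907 FPKM in RI and 2.25 ± 0.618 FPKM in ICI (SD, n = 4 each), a log2 difference of 1.27 (limma adjusted p = 0.0115). The angiomotin-like gene Amotl1 differed by 1.15 (adjusted p = 0.0122), the adhesion regulator Asap1 by 0.90 (adjusted p = 0.0155) and the secreted matrix gene Ccdc80 by 1.71 (adjusted p = 0.0179). The receptor kinase Axl, the most abundant of the list, averaged 198 ± 10.5 FPKM in RI and 121 ± 25.1 FPKM in ICI (adjusted p = 0.0296). Ptpn14 and Amotl1 passed in 8 of 8 fits with 1 tumour left out. Asap1 did not pass without ICI 4, Ccdc80 without ICI 4 or RI 2, and Axl without ICI 4, RI 1, RI 2 or RI 5. Of the 17 tested, 14 were higher in RI, whether or not they passed. Ankrd1 (0.20, adjusted p = 0.637) and Amotl2 (0.093, adjusted p = 0.717) were among those that did not pass. F3 (−0.49, adjusted p = 0.319), Igfbp3 (−0.61, adjusted p = 0.293) and Gadd45a (−0.81, adjusted p = 0.104) were lower in RI and did not pass. No test of the difference between Ccn1 or Ccn2 and the other target genes was made. TEAD core letters stood in a 250-base window of 6 of the 15 targets with a promoter sequence. A target counted if any of its windows matched, while the 12.6% given above is a share of windows, so the figures cannot be compared.

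Calls over all genes changed with single libraries, and the counts of both lists changed too. The number of genes that rose, 1486 with all tumours, was 1120 when ICI 2 was left out and 243 when ICI 4 was. For the RI tumours it was 558 (RI 1 left out), 408 (RI 2), 1190 (RI 4) and 641 (RI 5). Of the Hippo list, 4 genes rose when ICI 2 was left out, 1 for ICI 4, RI 1 or RI 2 and 3 for RI 5. Of the target list, 2 rose when ICI 4 was left out, 4 for RI 1, 3 for RI 2 and 5 for RI 4 or RI 5. With TPM 0 Hippo genes and 2 targets rose, against 192 of all genes, and without a filter 1 and 2. With FPKM rescaled without mitochondrial and ribosomal models, which moved the median of all genes to 0.29, 12 and 11 rose. In the tenth of tested genes with the longest exon sequence, which holds Yap1, Tead1, Ptpn14 and Amotl1, 25.0% rose and the median was 0.27. After the length and GC correction 4 Hippo genes rose and 1 fell, and 6 targets rose. The list medians were then 0.34 (Hippo) and 0.37 (targets), against −0.0077 over all genes. Yap1 (0.34, adjusted p = 0.135) and Amot (0.46, adjusted p = 0.108) did not pass there, while Tead1 (0.45, adjusted p = 0.0271) and Ptpn14 (0.98, adjusted p = 0.00945) did.

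**Figure D5:**
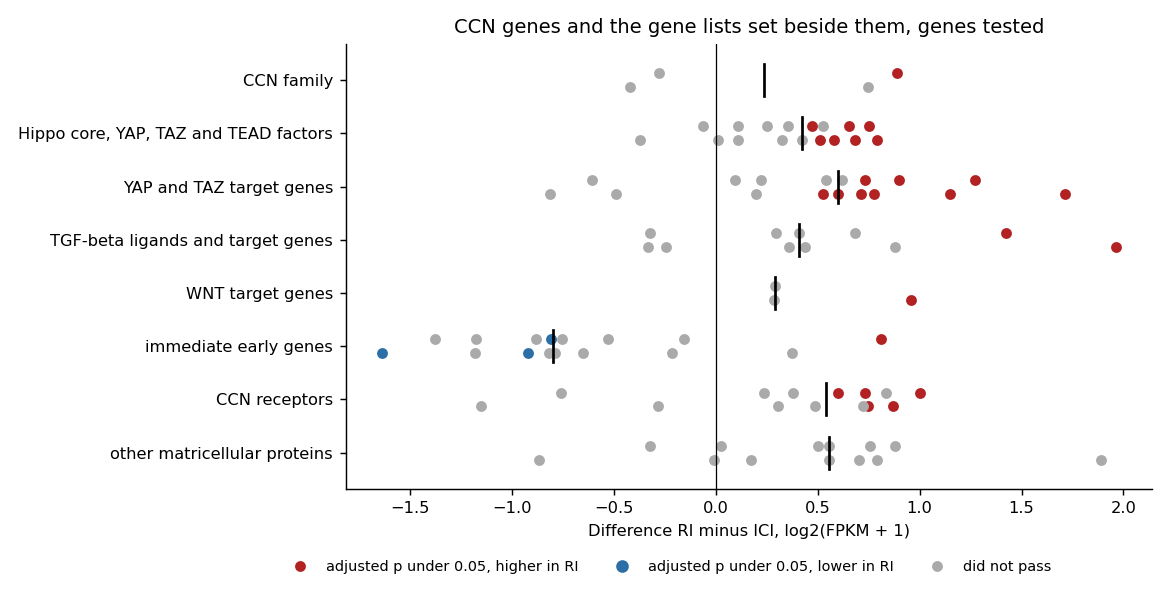
Difference RI minus ICI in log2(FPKM + 1) of each tested gene of the CCN family and of the lists set beside it, with 1 point per gene, the median of a list as a vertical bar, genes that passed in red (higher in RI) or blue (lower in RI) and the others in grey. The Hippo list (7 of 17), the YAP and TAZ targets (9 of 17) and the receptors (5 of 14) hold most of the red points, and 3 of 16 immediate early genes are blue. Over all genes tested 11.1% passed as higher in RI and 6.6% as lower.

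Genes of the TGF-beta list, which includes ligands and targets of the pathway that induces Ccn2, mostly did not pass. Of 11 tested 2 rose, 0 fell and 9 did not pass, with a median log2 difference of 0.41. Over all genes tested 11.1% rose and 6.6% fell, and so small a count cannot be set apart from that. Col1a1, the main chain of type I collagen, had 62.0, 239, 45.3 and 99.3 FPKM in RI 1, 2, 4 and 5, against 17.8, 19.4, 28.5 and 26.0 FPKM in ICI 1, 2, 3 and 4 (log2 difference 1.96, limma adjusted p = 0.0254). Fibronectin, Fn1, had 82.9, 97.9, 84.0 and 175 FPKM in RI and 19.7, 51.1, 30.7 and 69.1 FPKM in ICI (log2 difference 1.42, adjusted p = 0.0385), and it passed in 1 of 8 fits with 1 tumour left out. Col1a1 did not pass when ICI 2, ICI 4 or RI 5 was left out. Fn1 passed only without ICI 1 among those fits, and it did not pass without both ICI 1 and RI 4 (adjusted p = 0.0562) or after the length and GC correction (adjusted p = 0.0758). Col1a1 also belongs to the fibroblast markers. Periostin, Postn, differed by 0.88 (adjusted p = 0.0835) and the SMAD corepressor Skil by 0.41 (adjusted p = 0.173). The ligand Tgfb1 had 12.0 to 21.2 FPKM in RI and 12.4 to 16.2 FPKM in ICI (log2 difference 0.30, adjusted p = 0.288), and it passed without both ICI 1 and RI 4 (0.47, adjusted p = 0.0383). The count was 0 when ICI 2, ICI 4 or RI 5 was left out and 1 for ICI 3, RI 1, RI 2 or RI 4.

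WNT target genes, of interest for Ccn4, mostly did not meet the filter for testing. Of 12 genes 11 were in the table and 3 were tested, and 1 of these rose. With 3 genes, this cannot be set apart from the 11.1% of all genes tested that rose. Apcdd1, a membrane-bound WNT inhibitor, had 9.90, 7.82, 9.69 and 10.3 FPKM in RI 1, 2, 4 and 5, against 2.96, 5.59, 6.06 and 3.46 FPKM in ICI 1, 2, 3 and 4 (log2 difference 0.96, limma adjusted p = 0.0192), and it did not pass without ICI 4 (adjusted p = 0.0626). Znrf3, a ubiquitin ligase that removes WNT receptors, differed by 0.29 (adjusted p = 0.151), and the transcription factor gene Tcf7 by 0.29 (adjusted p = 0.381). Axin2, the usual readout of WNT signalling through beta-catenin, stayed at 0.170 to 1.20 FPKM in RI and 0.212 to 1.43 FPKM in ICI, with overlap. Nkd1 was not tested, though it reached 21.3 FPKM in ICI 1 and 3.56 FPKM in ICI 4. It had 0.250 and 0.114 FPKM in ICI 2 and 3 and at most 0.885 FPKM in RI. Without the filter the median log2 difference of the 11 genes was −0.027, and 5 were higher in RI.

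Immediate early genes, the class to which Ccn1 belongs, were lower in RI where they passed, with 1 exception. Of 16 tested 3 fell, 1 rose and 12 did not pass, with a median log2 difference of −0.80. Of all genes tested, 6.6% fell and 11.1% rose. The AP-1 gene Fos had 8.55, 11.4, 6.28 and 14.0 FPKM in RI 1, 2, 4 and 5, against 31.3, 22.4, 21.4 and 70.3 FPKM in ICI 1, 2, 3 and 4 (log2 difference −1.64, limma adjusted p = 0.0249). Jun (−0.81, adjusted p = 0.0154) and Junb (−0.92, adjusted p = 0.0316) fell as well. Fos did not pass without both ICI 1 and RI 4 (−1.46, adjusted p = 0.0620) or when RI 1, RI 2 or RI 4 alone was left out. Jun did not pass without ICI 4, and Junb passed in 3 of 8 such fits, those without ICI 1, RI 4 or RI 5. Srf, the serum response factor, rose with a log2 difference of 0.81 (adjusted p = 0.0492), and it passed in 2 of 8 fits with 1 tumour left out, those without ICI 1 or ICI 3. The median was −0.35 without both ICI 1 and RI 4. The number that fell was 1 without ICI 4, RI 1 or RI 2.

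Receptors for CCN proteins rose in part. Of 15 genes 14 were tested, 5 rose, 0 fell and 9 did not pass, with a median log2 difference of 0.54. Over all genes tested 11.1% rose and 6.6% fell. Lrp1, an endocytic receptor that binds several CCN proteins, had 46.2, 53.6, 54.4 and 58.3 FPKM in RI 1, 2, 4 and 5, against 25.8, 26.1, 34.2 and 28.7 FPKM in ICI 1, 2, 3 and 4 (log2 difference 0.87, limma adjusted p = 0.0130). The WNT co-receptor Lrp6 differed by 0.60 (adjusted p = 0.0164), Igf2r by 1.00 (adjusted p = 0.0168) and the integrin subunit Itgb3 by 0.75 (adjusted p = 0.0168). Lrp1 passed in 8 of 8 fits with 1 tumour left out, Igf2r did not pass without ICI 4, and Lrp6 and Itgb3 did not pass without ICI 4 or RI 2. The fifth was the integrin subunit Itga6. Itgav, the partner of Itgb3 and Itgb5, had 20.1 to 25.2 FPKM in RI and 5.83 to 17.0 FPKM in ICI, without overlap, and did not pass (log2 difference 0.83, adjusted p = 0.0643). Itgb5 had 24.6 to 33.9 FPKM in RI and 17.0 to 23.2 FPKM in ICI (adjusted p = 0.0640). Without both ICI 1 and RI 4, Itgav (0.56, adjusted p = 0.0409) and Itgb5 (0.48, adjusted p = 0.0173) passed.

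Integrin subunits of myeloid cells gave no call. Itgam had 3.14 to 8.56 FPKM in RI and 7.53 to 53.0 FPKM in ICI (limma adjusted p = 0.190), with its highest value in ICI 1, the tumour high in neutrophil markers. Itgb2 had 96.6 to 142 FPKM in RI and 53.1 to 140 FPKM in ICI (adjusted p = 0.362). The heparan sulfate proteoglycan Sdc4, the most abundant receptor gene, had 133 to 207 FPKM in RI and 77.8 to 186 FPKM in ICI (adjusted p = 0.451). The receptor count was 8 without ICI 1 or without both ICI 1 and RI 4, 1 without ICI 4 and 2 without RI 2. Lrp6 did not pass after the length and GC correction (0.25, adjusted p = 0.0861), where 5 receptors rose.

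Other matricellular genes, which share the stromal setting of the CCN family, gave no call. Beside 17.7% of all genes in the limma fit, 0 of 13 tested passed there and, on fragment numbers, 0 in limma voom. With 13 genes, a count of 0 cannot be set apart from that share. The unadjusted limma p was below 0.05 for 3 of the 13. Their median log2 difference was 0.55, and 10 of the 13 were higher in RI, whether or not they passed. Thbs2, an angiogenesis inhibitor, had 18.8, 27.7, 14.2 and 12.5 FPKM in RI 1, 2, 4 and 5, against 0.481, 7.95, 11.9 and 2.63 FPKM in ICI 1, 2, 3 and 4 (log2 difference 1.89, adjusted p = 0.0703). The groups did not overlap. Sparc had 89.5 to 218 FPKM in RI and 69.1 to 89.5 FPKM in ICI (adjusted p = 0.0725), which passed without both ICI 1 and RI 4 (0.89, adjusted p = 0.0377). Spp1, osteopontin, the most abundant of the list, had 301 to 589 FPKM in RI and 91.7 to 374 FPKM in ICI (adjusted p = 0.269). Smoc1 differed by 0.50 (adjusted p = 0.162). When ICI 3 or RI 4 was left out 1 gene rose, with array weights 3 did, and with FPKM rescaled without mitochondrial and ribosomal models 5 did. The count was also 1 with TPM, with upper-quartile scaling and without both ICI 1 and RI 4. It was 1 as well with FPKM rescaled to the fragment total without those models.

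Across the 8 tumours, the genes whose log2(FPKM + 1) tracked each member most closely were chosen from 13439 genes, so high values arise from the search alone, and they are given as a description. Closest to Ccn4 were Med16 (Pearson r = 0.989), Ubxn2a (0.978) and Rint1 (0.975). Closest to Ccn5 were Oma1 (0.977), Vps8 (0.951) and Zfat (0.945). For Ccn2 they were Lyve1 (0.944), a receptor for hyaluronan known from lymphatic endothelium and some macrophages, Cdc14b (0.934) and the microRNA gene Mir3079 (0.931). For Ccn1 they were Cnksr1 (0.956), Snx15 (0.951) and Prkab2 (0.907). After centring within each group these 12 values of r lay between 0.886 and 0.994. Without the 2 tumours farthest from the median of the member they lay between 0.686 for Vps8 and 0.995 for Med16, and the 3 for Ccn1 between 0.805 and 0.840. The tumours share the library and depth behind both genes of a pair.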

How the data were processed

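The authors deposited FPKM, fragments scaled for gene length and library size, in 1 table with a column per tumour. HISAT2 and GRCm38 (mm10) are named, per the submitters' processing notes. For versions, counting program, annotation and strand setting, nothing is given in the sources used here. Of 32098 gene rows, 31407 matched GENCODE M21 by identifier, which gave coordinates, merged exon length and GC content. Low FPKM values times exon length fall on steps, from which fragment numbers were recovered. Between 98.6% and 98.8% of values up to 50 fragments lay within 0.05 of a whole number.

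Genes reaching 1 FPKM in 4 or more tumours were fitted with limma 3.58.1 in R 4.3.3 after log2 transformation with a pseudocount of 1 (eBayes with trend and robust variance), RI minus ICI, two-sided. Calls are Benjamini-Hochberg adjusted p under 0.05 over 13439 genes, and each adjusted p is from this fit unless another is named. The fit was checked on simulated data. Same-group libraries differed by a chi-square of at least 37.1 per gene, so no pair agreed within counting error. Separate preparations of the same tumour can differ by more than that and were not excluded. Members and gene lists were chosen with earlier results of these data known. Dkk1, a list gene, was not used here.

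Named from a list were up to 4 tested members with the smallest p, the member with the highest mean FPKM and Yap1, Wwtr1, Tgfb1, Itgav, Itgb3, Itgb5, Itgam, Itgb2, Sdc4, Lrp1 and Axin2, with 3 genes of highest r per CCN gene. Marker genes were named by level or by call, and Epcam, Krt5, Lum, Itga6, Cldn3, Trac, Acan, Col2a1 and Sp7 after their values were seen. So were Tead2, Tead3, Tead4, Ankrd1, Amotl2, F3, Igfbp3, Gadd45a and Nkd1. Alternatives were other filters, pseudocounts, scalings and variance models, array weights, length and GC correction (lowess, span 0.3), limma voom on recovered fragments, a replicate block and tumours left out. FPKM rescaled to the fragment total without mitochondrial and ribosomal models, and Ccn3 without ICI 1 and RI 4, were added after the data were seen.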

Additional observations from a re-analysis of the deposited data

Results flagged for a closer look

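One tumour stood far from the other 3 of its group in the values below, by the gap to its neighbour as a share of the group's range. In all, 146 groups of 4 tumours were looked at in this way, and chance flags about 5% of them. The share of Ccn4 in the summed CCN FPKM was 2.59% in ICI 2, against 0.683% to 0.891% in the other ICI tumours. In RI, Fn1 reached 175 FPKM in RI 5, Itgav 25.2 FPKM in RI 2 and Ptpn14 8.12 FPKM in RI 1, each above the other RI tumours. In ICI 1, Itgam was high at 53.0 FPKM and Itgb5 low at 17.0 FPKM. Of the genes that tracked CCN members, Med16 (8.34 FPKM) and Prkab2 (3.06 FPKM) were low in RI 4, and Vps8 was high in RI 2 (2.07 FPKM). Of the marker sums, epithelial markers reached 1400 FPKM in RI 5 and adipocyte markers 351 FPKM in RI 2. In ICI 1 endothelial markers reached 359 FPKM and neutrophil markers 21281 FPKM.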

How the results depend on the processing

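Ccn4 was higher in RI under each setting tried, and Ccn1 lower and Ccn5 higher without a call. The difference of Ccn4 lost its call without a filter (0.89, adjusted p = 0.0918), with TPM (1.26, adjusted p = 0.0914), with the replicate block (0.78, adjusted p = 0.132) and with the replicate block and the length and GC correction (0.58, adjusted p = 0.178). The number of CCN genes called was then 0, as it was with a mean FPKM of at least 5, under which Ccn4 was not tested. Both fits with the replicate block rest on the tumours numbered 1, 2 and 4 alone, as set out below. With 1 tumour left out, the difference of Ccn4 ran from 0.78 to 1.06 and the number called from 0 to 1. The sign of Ccn2, which was never called, turned with FPKM rescaled without mitochondrial and ribosomal models (0.028), array weights (0.14) and without ICI 1 and RI 4 (0.12), and with 1 tumour left out it ran from −0.58 to 0.029. Wwtr1 turned with array weights (−0.061), the length and GC correction (−0.045), the replicate block with that correction (−0.038) and without ICI 1 and RI 4 (−0.0089), and ran from −0.077 to 0.21 with 1 tumour left out. Znrf3 turned with the replicate block and that correction (−0.0062). The cause was not tested. The median of all genes was 0.11 with TPM and 0.29 with FPKM rescaled without mitochondrial and ribosomal models, against 0.011, so differences under those settings are relative to that shift. TPM divides by the summed FPKM, which was 717092 in RI 4 and 358243 to 367797 in the other RI tumours. The part of RI 4 in the calls lost with TPM was not tested.

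Replicate numbers 1, 2 and 4 occur in both groups, but same-numbered tumours did not deviate together (r = −0.0923, −0.12 and −0.124), so the numbers were not taken to pair them. With the replicate block 16 genes of all those tested rose and 6 fell, against 1486 and 887. Replicate 3 occurs only in ICI and replicate 5 only in RI. In that fit ICI 3 and RI 5 add nothing to the group difference, which rests on the tumours numbered 1, 2 and 4. Fewer calls are therefore partly a matter of fewer tumours. Of the 21 other named genes that passed, 17 passed after the length and GC correction, 21 with limma voom, 5 with TPM, 4 without a filter and 5 without ICI 4. Ccn3 and part of the WNT list lie where few fragments limit what can be seen.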
